A study of Mus musculus with 6 samples.

Results

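Kinesins and dyneins are the motor proteins that walk along microtubules, and the genes described here encode the kinesin heavy chains, the kinesin light chains and the subunits of cytoplasmic dynein. A gene was taken when a probe of the array carried a single symbol of the form Kif or Kifc with a number, Klc with a number, or a symbol that starts with Dync or Dynl, leaving out Kif4. This gave 39 genes and 40 probes among the 33012 probes of the array, with 2 probes for Kif9. Motor genes whose symbols do not have this form, such as Cenpe, are not members.

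Each array of the series measured the mRNA of 1 mouse oocyte. The Ago2-deficient group comprised 3 mature oocytes of conditional knockout females (Ago2 F/F, Zp3-Cre), in which Cre under the zona pellucida glycoprotein promoter deletes the floxed Ago2 gene in growing oocytes only, so that the surrounding follicle cells keep it. The paper reports that the deletion failed in a few cases, and says that its allele may be a hypomorph and not a null mutant. The other group comprised 3 wild-type oocytes labelled as germinal vesicle (GV) stage, although their labels give the oviduct as the source, which the methods give for ovulated oocytes. Genotype and stage differ together between the groups and cannot be told apart, and nothing in the labels ties the oocytes to separate females, which limits the p-values to the spread among these 6 cells. Adult females gave the oocytes, and hyaluronidase was used to strip the cumulus cells, by the labels for GV and by the methods for ovulated oocytes.

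A probe whose signal was 3 or more times its noise was taken as detected, which was so for 4620 to 6798 probes per Ago2-deficient oocyte and 10650 to 11334 per GV oocyte. The median signal of undetected probes was 145 to 231 on the Ago2-deficient arrays and 70.8 to 83.3 on the GV arrays. Of 11 oocyte marker genes on the array, 9 were detected in every Ago2-deficient oocyte and 11 in every GV oocyte, and the mean log2 signal of the list was 14.49 to 14.63 in Ago2-deficient oocytes and 16.68 to 16.93 in GV oocytes. Of 13 cumulus and granulosa markers, 0 to 3 were detected in an Ago2-deficient oocyte and 4 to 6 in a GV oocyte, with mean log2 signals of 7.33 to 7.72 in Ago2-deficient oocytes and 7.64 to 8.21 in GV oocytes. Hsd17b1, Inha and Nr5a2 were detected in all 3 GV oocytes, and in 0, 0 and 1 of the Ago2-deficient oocytes. Amhr2 and Inhba were detected in 1 Ago2-deficient and 2 GV oocytes each, Cyp11a1 and Foxl2 in 1 Ago2-deficient oocyte only, Kitl and Star in 1 GV oocyte only, and Amh, Fshr, Has2 and Tnfaip6 on no array. The part of cumulus or granulosa RNA in the results was not tested. On the log2 scale the Ago2 probe read 6.67, 6.49 and 6.94 in Ago2-deficient oocytes, against 7.88, 6.25 and 6.93 in GV oocytes, of which 1 GV value alone was detected. Whether this probe lies in the deleted exons is not stated in the sources used here, and it is no check of the genotype.

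Most kinesins use ATP to walk towards the growing end of a microtubule, while cytoplasmic dynein walks the other way. In a mammalian oocyte the meiotic spindle forms without centrioles. Kinesins push antiparallel microtubules apart, align and separate the chromosomes and build the midzone from which the polar body is pinched off, and dynein, with its cofactor dynactin, focuses the spindle poles and strips checkpoint proteins from kinetochores. Other kinesins carry vesicles, organelles and mRNAs, or work in cilia. Spindle kinesins are typical cell cycle genes, and many promoters of this kind hold an element called CHR, often TTTGAA, together with CCAAT boxes.

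The promoters of 5 spindle kinesins are printed here because these genes carry the pattern described below: Kif22, Kif11, Kif18b and Kif18a were lower in Ago2-deficient oocytes, and Kif23 was not. Each window runs from 250 bases before to 50 bases after the annotated start, 5′ to 3′ on the gene's own strand, in the RefSeq annotation of GRCm38.p6. Capitals mark TTTGAA and CCAAT on either strand, so that TTCAAA and ATTGG mark matches on the other strand.
Kif22, chr7:127042371-127042670 (minus strand): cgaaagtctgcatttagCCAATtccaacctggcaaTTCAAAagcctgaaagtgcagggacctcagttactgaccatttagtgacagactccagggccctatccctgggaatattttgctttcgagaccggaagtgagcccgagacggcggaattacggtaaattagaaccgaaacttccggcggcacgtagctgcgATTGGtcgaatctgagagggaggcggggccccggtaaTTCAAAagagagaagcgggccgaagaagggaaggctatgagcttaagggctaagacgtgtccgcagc
Kif11, chr19:37376132-37376431 (plus strand): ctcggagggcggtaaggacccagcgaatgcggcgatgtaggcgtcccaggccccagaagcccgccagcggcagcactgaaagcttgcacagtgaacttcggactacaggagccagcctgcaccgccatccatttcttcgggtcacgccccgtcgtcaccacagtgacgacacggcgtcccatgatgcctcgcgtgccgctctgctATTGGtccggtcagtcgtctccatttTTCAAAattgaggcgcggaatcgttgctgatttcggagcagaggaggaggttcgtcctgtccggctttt
Kif18b, chr11:102925075-102925374 (minus strand): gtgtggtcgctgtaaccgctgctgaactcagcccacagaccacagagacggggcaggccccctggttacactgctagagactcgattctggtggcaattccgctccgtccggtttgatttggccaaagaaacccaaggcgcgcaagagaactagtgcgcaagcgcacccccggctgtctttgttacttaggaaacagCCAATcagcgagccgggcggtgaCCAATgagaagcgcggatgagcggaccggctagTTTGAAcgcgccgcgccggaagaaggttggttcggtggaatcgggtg
Kif18a, chr2:109280488-109280787 (plus strand): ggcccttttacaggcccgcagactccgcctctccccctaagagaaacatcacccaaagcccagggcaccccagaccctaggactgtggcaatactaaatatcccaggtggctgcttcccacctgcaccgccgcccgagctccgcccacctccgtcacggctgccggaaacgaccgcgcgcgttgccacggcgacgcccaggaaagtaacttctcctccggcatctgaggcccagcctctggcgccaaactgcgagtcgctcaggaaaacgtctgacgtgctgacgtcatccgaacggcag
Kif23, chr9:61946750-61947049 (minus strand): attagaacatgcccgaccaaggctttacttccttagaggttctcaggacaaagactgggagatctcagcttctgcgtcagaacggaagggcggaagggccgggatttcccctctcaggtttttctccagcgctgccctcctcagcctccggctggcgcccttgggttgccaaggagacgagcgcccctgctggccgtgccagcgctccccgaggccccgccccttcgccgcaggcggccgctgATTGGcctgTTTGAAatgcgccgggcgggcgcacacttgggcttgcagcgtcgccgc

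RefSeq windows of this kind were found for 31 of the 39 genes, 37 windows in all, and not for Dync2li1, Dynll2, Dynlt1b, Kif20a, Kif5a, Kif5b, Kifc2 and Kifc3. TTTGAA stood in the window of 7 of 9 spindle kinesins (Kif11, Kif15, Kif18b, Kif22, Kif23, Kif2c and Kifc5b) and of 2 of the 22 other motor genes (Kif1a and Kif27), beside 17.9% of all 32851 windows. TTTGAA and CCAAT stood together in 5 spindle kinesins, Kif11, Kif18b, Kif22, Kif23 and Kifc5b, and in Kif27 of the others, beside 6.95% of all windows. CCAAT, with or without TTTGAA, stood in 5 of the 9 spindle kinesins and 8 of the 22 others, beside 37.4% of all windows. The motors are counted here by gene and these shares by window. Counted by gene, TTTGAA stood in 5466 of all 27025 genes, both motifs in 2155 and CCAAT in 11096. In Kif22 a TTTGAA on the other strand began 17 bases before the start and in Kif11 19 bases before it, whereas in Kif18b it began at base 4 and in Kif23 at base 3 after it. The Kif18a window held neither.

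The number of the 39 motor genes above the detection limit was 10, 13 and 15 in Ago2-deficient oocytes, against 26, 18 and 23 in GV oocytes, without overlap between the groups. On average 12.7 ± 2.52 genes were detected per Ago2-deficient oocyte and 22.3 ± 4.04 per GV oocyte (SD, n = 3 each). The two-sided exact permutation test gave p = 0.1, and 3 oocytes against 3 cannot give less. The counts of all detected probes, given above, ran the same way, and the number of motor genes was not tested against them. Only Dynll1, Klc4, Kif23 and Kifc5b were detected on all 6 arrays, beside 2512 of all 33012 probes. On 1 array only, 10 genes were detected, beside 7100 of all probes.

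**Figure D1:**
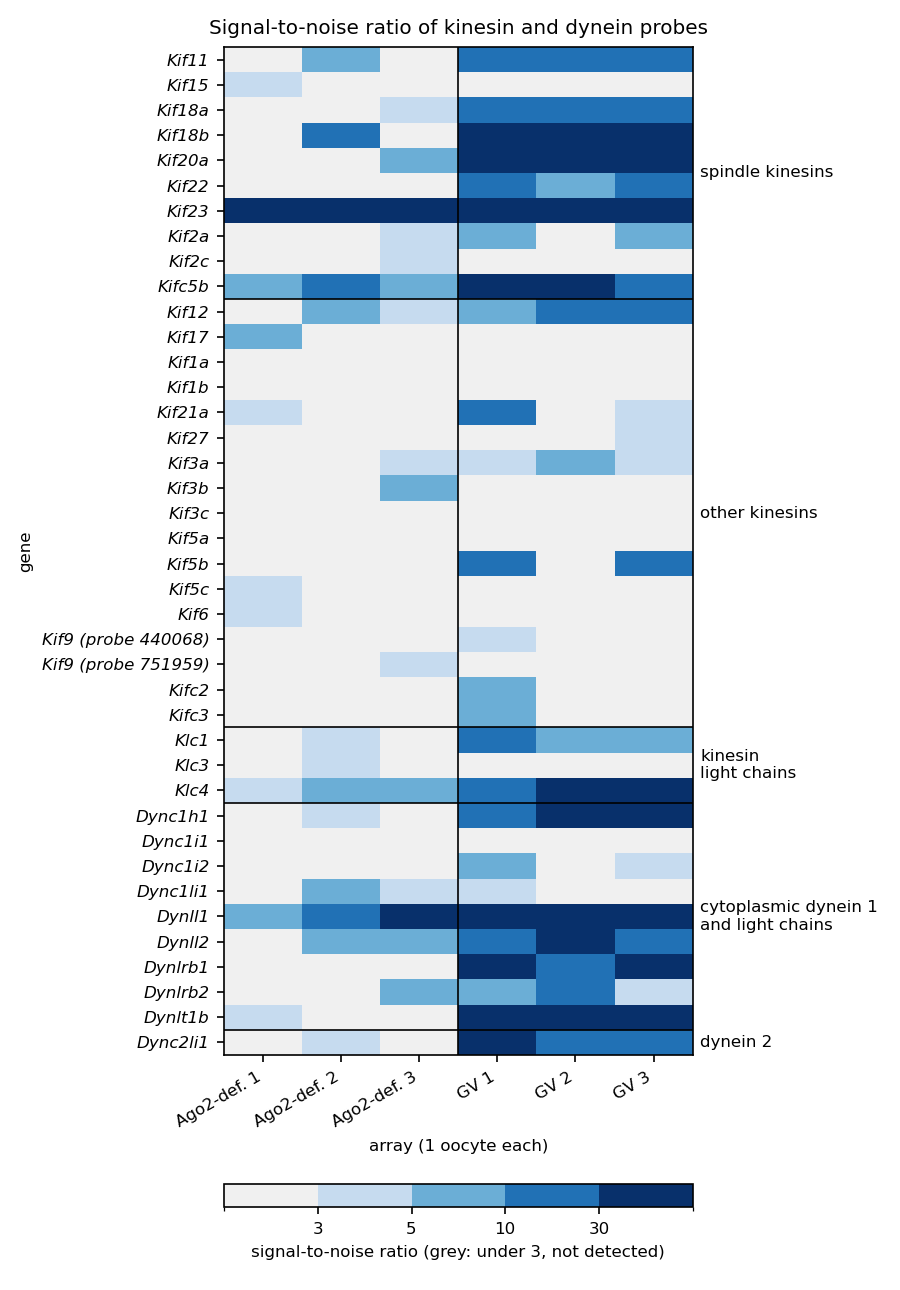
Signal-to-noise ratio of each kinesin and dynein probe (rows, grouped by role) on each array (columns, 3 Ago2-deficient mature oocytes left and 3 wild-type GV oocytes right), in 5 colour steps with grey for probes under 3, counted as not detected. Kif23 is dark in all 6 oocytes, while the dark blocks of Kif18b, Kif20a, Dynlrb1 and Dynlt1b in the GV oocytes have mostly grey or pale cells opposite them in the Ago2-deficient oocytes.

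Among the motors, the spindle kinesins Kif11, Kif18a, Kif18b, Kif20a and Kif22, the dynein light chains Dynll1, Dynlrb1 and Dynlt1b and the ciliary dynein subunit Dync2li1 were lower in Ago2-deficient than in GV oocytes, with log2 differences of -3.69 to -1.28, and no motor gene was higher. A difference was tested for the 18 motor genes that every oocyte of 1 group or the other showed above the detection limit. The test was limma on the authors' quantile-normalized log2 signals, fitted over all probes of the array that passed this filter, and calls needed an adjusted p below 0.05 and more than a 2-fold difference. Of the 18 genes, 9 were lower in Ago2-deficient than in GV oocytes, beside 44.8% of all 7915 genes tested, and 0 were higher, beside 17.4%. At an unadjusted p under 0.05, 10 motor genes were lower and 2 higher, beside 48.2% and 18.8% of all genes tested. Calls in either direction thus covered 9 motor genes of 18, beside 62.2% of all genes tested, and the share of lower motor genes was near that of all genes. The median log2 difference of the motors was -1.75, beside -1.39 over all genes tested. The filter enters here: 14 of the 18 passed it through the GV oocytes alone, and none through the Ago2-deficient oocytes alone. The groups did not overlap in 12 of the 18, with the Ago2-deficient oocytes below in 9 (50.3% of all genes tested) and above in 3 (20.2%).

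The count depended on which oocytes were included and on how the arrays were scaled to each other. Of 18 motor genes tested each time, 5 were lower without Ago2-deficient replicate 3 (47.3% of all genes tested), 3 without GV replicate 1 (35.8%) and 3 without GV replicate 3 (35.7%), and of 22 tested, 6 were lower without GV replicate 2 (35.4%). Without Ago2-deficient replicate 1, the oocyte with the fewest detected probes, 9 of 19 were lower and 2 higher (44.4% and 23.5% of all genes tested), and without Ago2-deficient replicate 2, 8 of 18 were lower and 1 higher (44.8% and 17.6%). Scaled to a common median, 16 motor genes were lower and none higher (78.6% and 3.94% of all genes tested), with no scaling 12 and none (60.3% and 7.72%), and with cyclic loess 5 and 3 (31.7% and 24.7%). The median of all genes tested itself moved, to -3.08 with a common median, -1.97 with no scaling and -0.36 with cyclic loess, and that of the motors to -3.59, -2.49 and -0.53. Of the called genes, all but Dynll1 passed the filter through the GV oocytes alone. They could therefore not be tested among probes detected on all 6 arrays. Among them, Dynlrb1, Kif18a and Kif22 were called lower in each of the 21 alternatives in which each was tested. The 4 genes still called with no filter on dim probes (9.12% of all genes tested) were these and Dync2li1, and with ordinary t-statistics (37.5%) these and Kif11. For the other 6 called genes the sign of the difference stayed negative in every alternative run.

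**Figure D2:**
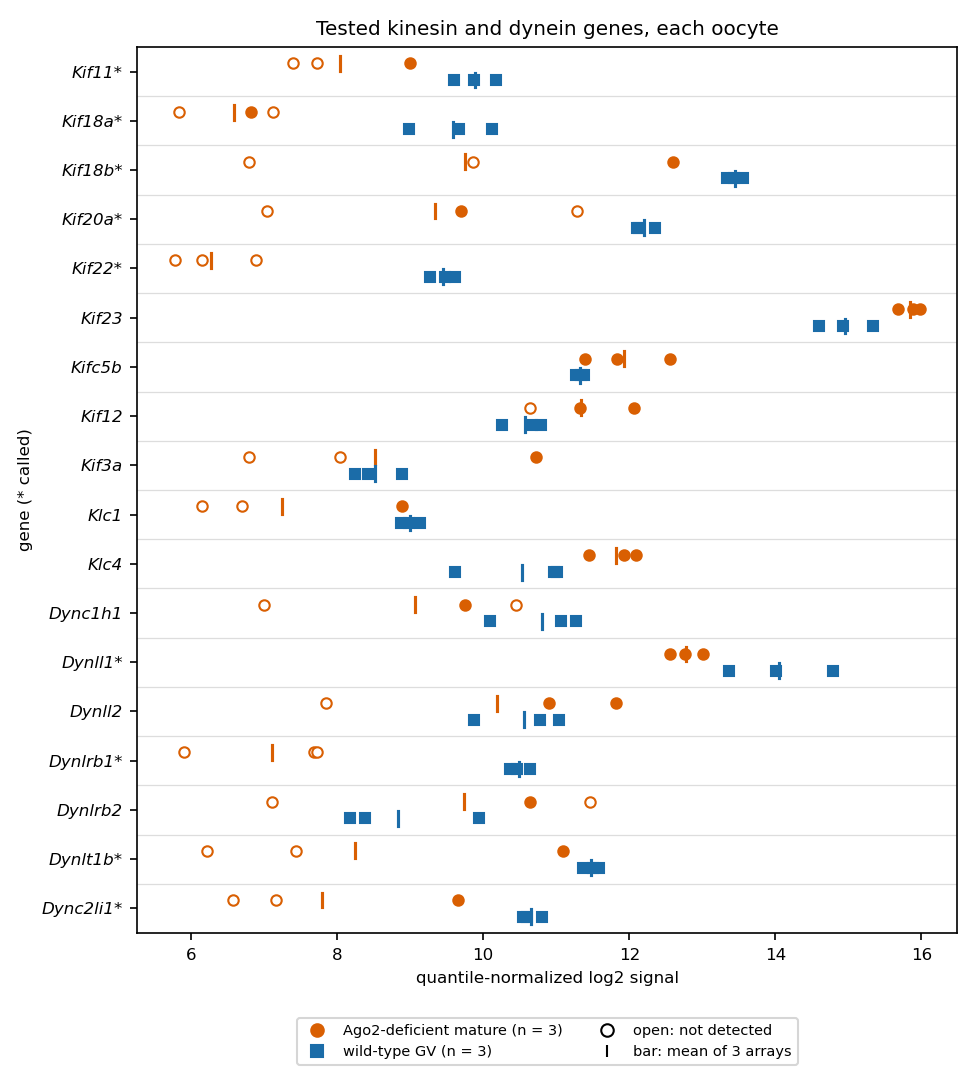
Quantile-normalized log2 signal (horizontal axis) of each tested kinesin and dynein gene in each oocyte; circles are Ago2-deficient mature and squares wild-type GV oocytes, open symbols are not detected, bars are means of 3 arrays, and asterisks mark called genes. The squares of most called genes lie close together while the circles spread to the left, from 6.79 to 12.60 in Kif18b.

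Of 10 spindle kinesins on the array 7 were tested and 5 were lower, beside 44.8% of all genes tested: Kif11, Kif18a, Kif18b, Kif20a and Kif22. These 5 passed the filter through the GV oocytes alone. Kif23 and Kifc5b were detected in every oocyte and were not called. Kif22 is a chromokinesin that binds chromosome arms and pushes them towards the spindle equator. Its log2 signal was 5.77, 6.15 and 6.89 in Ago2-deficient oocytes, none of them detected, and 9.48, 9.27 and 9.61 in GV oocytes. Every Ago2-deficient oocyte lay below every GV oocyte. Kif22 had a fitted log2 difference of -3.18 (standard error 0.39, adjusted p = 0.00069). Its GV mean was 8.36-fold above a floor value. The floor took the dimmest detected signal on each Ago2-deficient array, or the gene's own signal where that was brighter. This is no strict bound, since brighter signals could go undetected (Kif20a at 11.28 in Ago2-deficient replicate 1). Among the alternatives run, the fitted difference of Kif22 was -1.92 at its smallest.

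Kif18a, which sits at the plus ends of kinetochore microtubules and damps the oscillation of chromosomes, read 5.83, 7.12 and 6.82 in Ago2-deficient oocytes, against 10.12, 8.98 and 9.67 in GV oocytes. It was detected in 1 Ago2-deficient oocyte, replicate 3, and differed by -2.99 (standard error 0.49, adjusted p = 0.0021). Its relative Kif18b, which shortens astral microtubules, read 6.79, 12.60 and 9.86 in Ago2-deficient oocytes, against 13.56, 13.43 and 13.34 in GV oocytes. The SD was 2.91 among the Ago2-deficient and 0.11 among the GV oocytes. Kif18b differed by -3.69 (standard error 1.34, adjusted p = 0.0481), and the difference was -2.21 without Ago2-deficient replicate 1 and -5.12 without Ago2-deficient replicate 2. That replicate's spot, the only one detected in the group, carried a high flag code. The call was lost without Ago2-deficient replicate 3 (adjusted p = 0.0899) and without GV replicate 1, 2 or 3 (0.124, 0.114 and 0.110).

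Kif11, the motor that slides antiparallel microtubules apart and keeps the spindle bipolar, read 7.72, 8.99 and 7.40 in Ago2-deficient oocytes, against 10.18, 9.61 and 9.88 in GV oocytes. It was detected in 1 Ago2-deficient oocyte and differed by -1.85 (standard error 0.49, adjusted p = 0.0155). The call was lost without GV replicate 1 (adjusted p = 0.0628) and GV replicate 3 (0.0539). The difference was -0.03 with cyclic loess, and it was -1.02 when arrays were centred on probes that all 6 had detected (neither called). Kif20a, which carries the chromosomal passenger complex to the midzone, read 11.28, 7.05 and 9.69 in Ago2-deficient oocytes, against 12.14, 12.10 and 12.35 in GV oocytes. The first of these values, although the highest of its group, was not above the detection limit on that array, and the third was. Kif20a differed by -2.86 (standard error 1.01, adjusted p = 0.0434), and the difference was -3.83 when Ago2-deficient replicate 1 was left out and -1.71 when replicate 2 was. The call was lost without Ago2-deficient replicate 3 (adjusted p = 0.0703) and without GV replicate 1, 2 or 3 (0.109, 0.103 and 0.114), and with cyclic loess (-1.58, 0.0955).

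Kif23, the motor subunit of centralspindlin, bundles midzone microtubules for cytokinesis. It read 15.88, 15.67 and 15.98 in Ago2-deficient oocytes, against 14.59, 15.34 and 14.92 in GV oocytes. The groups did not overlap, but the log2 difference of 0.89 (standard error 0.34, adjusted p = 0.0565) was not called. Scaled to a common median instead, it was -1.96, and without scaling -0.85. Kifc5b, a minus-end motor closely related to the spindle-pole kinesin Kifc1, read 11.39, 11.84 and 12.56 in Ago2-deficient oocytes, against 11.34, 11.27 and 11.37 in GV oocytes, a difference of 0.60 (standard error 0.39, adjusted p = 0.220). That difference was 1.35, and called, with cyclic loess but -2.54 with a common median and -1.44 with no scaling, both called. The probe may also bind Kifc1 transcripts, since the genes are close copies. The other spindle kinesins, Kif15, Kif2a and Kif2c, were not tested. Kif15, which can back up Kif11, was detected in Ago2-deficient replicate 1 only, and Kif2c, a microtubule depolymerase of centromeres, in Ago2-deficient replicate 3 only. Kif2a, a depolymerase of spindle poles, was detected in Ago2-deficient replicate 3 and in GV replicates 1 and 3.

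**Figure D3:**
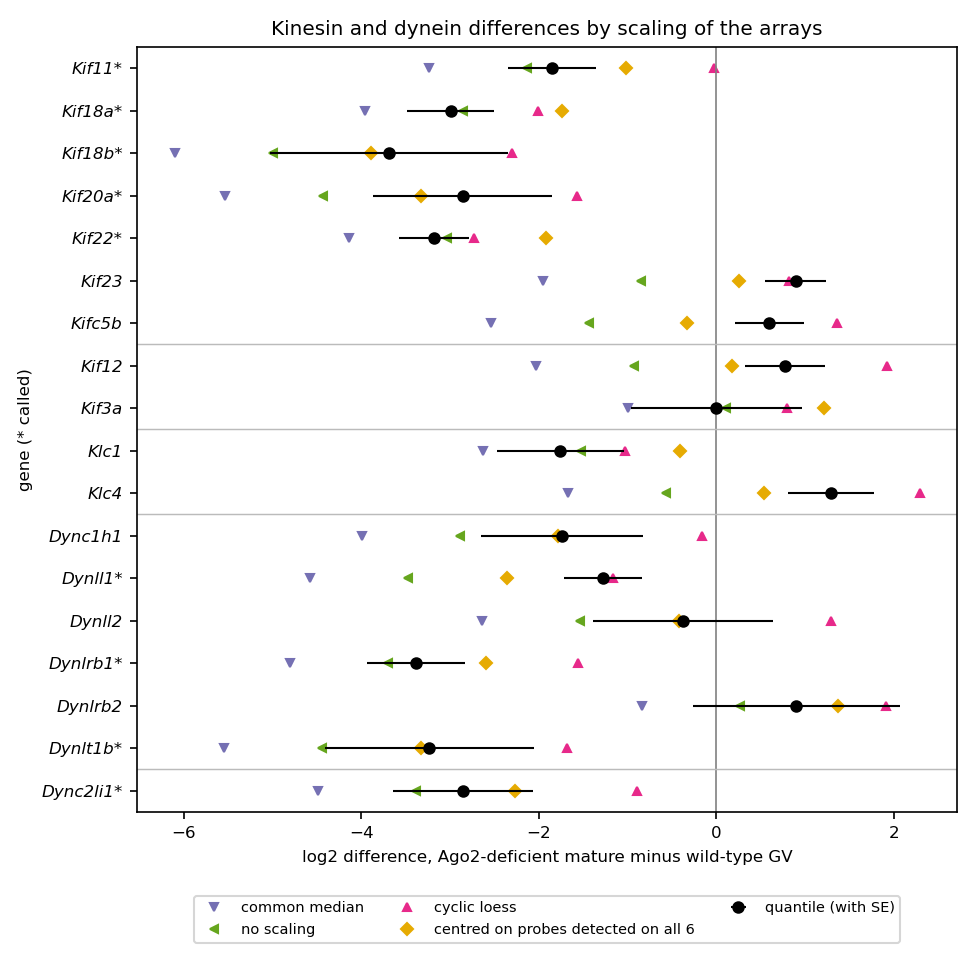
Horizontal axis, log2 difference between Ago2-deficient and GV oocytes (positive where Ago2-deficient is higher), of each tested kinesin and dynein gene under 5 scalings of the arrays, with the standard error for the quantile-normalized values and asterisks at genes called on them. The called genes stay left of 0 under each scaling shown. Kif23, Kifc5b, Kif12, Klc4 and Dynlrb2 lie right of 0 with quantile values and left of it with a common median. Kif3a goes from 0.00 to -0.997 between these 2 scalings, and Kifc5b is also left of 0 when centred on probes detected on all 6 arrays.

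Of the 9 genes of cytoplasmic dynein 1 and its light chains, 6 were tested, of which 5 passed the filter through the GV oocytes alone. The light chains Dynlrb1, Dynll1 and Dynlt1b were lower, 3 of the 6, a share near the 44.8% of all genes tested. Dynlrb1, a roadblock light chain of the dynein tail, read 7.69, 7.72 and 5.91 in Ago2-deficient oocytes, none detected, against 10.46, 10.36 and 10.65 in GV oocytes. Its GV mean was 9.50-fold above the floor described for Kif22. The fitted log2 difference was -3.38 (standard error 0.55, adjusted p = 0.00208), -2.78 without Ago2-deficient replicate 3 and -1.55 with cyclic loess. Dynll1, the LC8 light chain that also serves many other proteins as a dimerization hub, was detected in every oocyte. It read 12.77, 12.55 and 13.00 in Ago2-deficient oocytes, against 14.79, 13.37 and 14.01 in GV oocytes, so that the groups did not overlap. Dynll1 differed by -1.28 (standard error 0.44, adjusted p = 0.0406). The call was lost without Ago2-deficient replicate 1, 2 or 3 (adjusted p = 0.0585, 0.0917 and 0.0501), without GV replicate 1 (-0.91, 0.126) and without GV replicate 3 (0.106). It was also lost with the replicate number as a block (0.0624) and with array weights (-1.19, 0.119).

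Dynlt1b, a Tctex-type light chain, read 11.09, 6.22 and 7.43 in Ago2-deficient oocytes, against 11.58, 11.50 and 11.37 in GV oocytes. Replicate 1, the only Ago2-deficient oocyte with a detected signal, was close to the GV oocytes and the others were far below. Dynlt1b differed by -3.24 (standard error 1.18, adjusted p = 0.0487), and by -4.66 without Ago2-deficient replicate 1. The call was lost without Ago2-deficient replicate 2 (-2.22, adjusted p = 0.120) or 3 (0.119), without GV replicate 1, 2 or 3 (0.125, 0.117 and 0.110) and with cyclic loess (-1.68, 0.123). It was also lost at a detection limit of 2 (0.0504). The mouse has several near-identical Dynlt1 copies, so which copy was measured is uncertain. Dync2li1, the light intermediate chain of the dynein that works inside cilia, read 7.16, 9.65 and 6.57 in Ago2-deficient oocytes, against 10.60, 10.55 and 10.81 in GV oocytes. It was detected in 1 Ago2-deficient oocyte and differed by -2.86 (standard error 0.79, adjusted p = 0.0182), and the difference was -3.78 when Ago2-deficient replicate 2 was left out and -2.24 when replicate 3 was. The call was lost without GV replicate 1, 2 or 3 (adjusted p = 0.0586, 0.0547 and 0.0619) and with cyclic loess (-0.89, 0.197).

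The heavy chain that holds the motor itself was not called. Dync1h1 read 10.45, 9.75 and 7.01 in Ago2-deficient oocytes, where only the second value was detected, against 10.09, 11.27 and 11.06 in GV oocytes, a difference of -1.74 (standard error 0.91, adjusted p = 0.138). It was called at -2.43 (adjusted p = 0.0431) without Ago2-deficient replicate 1 and stood at -0.70 (0.253) without Ago2-deficient replicate 3. Among the scalings it was called with a common median (-4.00) and with none (-2.89), and stood at -0.16 with cyclic loess. Dynll2, the other LC8 light chain, read 7.85, 11.82 and 10.90 in Ago2-deficient oocytes, against 9.88, 11.04 and 10.78 in GV oocytes, and the groups overlapped (-0.37, standard error 1.02, adjusted p = 0.766). Dynll2 stood at 0.80 without Ago2-deficient replicate 1, -1.19 without Ago2-deficient replicate 2 and 1.29 with cyclic loess, and was called at -2.64 with a common median. Dynlrb2, the other roadblock chain, read 11.46, 7.11 and 10.65 in Ago2-deficient oocytes, against 8.39, 9.95 and 8.18 in GV oocytes. It differed by 0.90 (standard error 1.16, adjusted p = 0.525), was called higher at 2.22 (adjusted p = 0.0310) without Ago2-deficient replicate 2, and stood at 0.038 without Ago2-deficient replicate 1 and at -0.84 with a common median. The paralogues thus gave different values, but the difference between Dynll1 and Dynll2, or between Dynlrb1 and Dynlrb2, was not tested. The intermediate chains, which link the motor to dynactin, were not tested: Dync1i1 was detected on no array and Dync1i2 in GV replicates 1 and 3 only. Dync1li1, a light intermediate chain that binds cargo adaptors, was detected in Ago2-deficient replicates 2 and 3 and in GV replicate 1.

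None of the kinesin light chains, which couple conventional kinesin to its cargo, was called. Klc4 read 11.93, 12.10 and 11.44 in Ago2-deficient oocytes, against 9.61, 10.97 and 11.01 in GV oocytes. The groups did not overlap and the difference was 1.29 (standard error 0.48, adjusted p = 0.0529). Klc4 was called higher at 2.29 with cyclic loess, yet a common median gave a called difference of -1.67, and no scaling -0.57. Klc1 read 6.70, 8.88 and 6.15 in Ago2-deficient oocytes, against 9.13, 8.99 and 8.88 in GV oocytes, a difference of -1.76 (standard error 0.71, adjusted p = 0.0686). It was called lower at -2.58 (adjusted p = 0.00224) without Ago2-deficient replicate 2, the only oocyte of its group in which it was detected, and at -2.63 with a common median and -1.52 with no scaling. Klc3 was detected in Ago2-deficient replicate 2 only.

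Of the 16 other kinesins, of cargo transport and cilia, 2 were tested and neither was called. Kif12, a kinesin of epithelial cells, read 10.64, 12.07 and 11.32 in Ago2-deficient oocytes, against 10.25, 10.67 and 10.80 in GV oocytes, a difference of 0.77 (standard error 0.45, adjusted p = 0.173). It was called higher at 1.12 (adjusted p = 0.0399) without Ago2-deficient replicate 1 and at 1.93 with cyclic loess, but lower under a common median, at -2.04. Kif3a, a motor subunit of the kinesin that builds cilia, read 8.04, 6.79 and 10.72 in Ago2-deficient oocytes, against 8.24, 8.89 and 8.43 in GV oocytes, with a difference of 0.00 (standard error 0.96, adjusted p = 0.999), which was 0.86 without Ago2-deficient replicate 2 and -1.10 without Ago2-deficient replicate 3. Its partner Kif3b was detected in Ago2-deficient replicate 3 only, whereas Kif3a was detected in that replicate and in all 3 GV oocytes. Among the conventional kinesin heavy chains, Kif5b, the widely expressed form, was detected in no Ago2-deficient oocyte and in GV replicates 1 and 3. Of the neuronal forms, Kif5c was detected in Ago2-deficient replicate 1 only and Kif5a on no array. Kif5a, Kif1a, Kif1b, Kif3c and the dynein gene Dync1i1 were the 5 motor genes detected nowhere.

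Of the 39 motor genes, 7 were detected in Ago2-deficient oocytes but in no GV oocyte, beside 3528 of all 33012 probes. Each of the 7 was detected in 1 oocyte only. Kif15, Kif17, Kif5c and Kif6 were detected in Ago2-deficient replicate 1, Klc3 in replicate 2, and Kif2c and Kif3b in replicate 3. Another 7 genes were detected in GV oocytes only, beside 7954 of all 33012 probes. Of these, Kif22 and Dynlrb1 were detected in all 3 GV oocytes, Kif5b and Dync1i2 in 2, and Kif27, Kifc2 and Kifc3 in 1. The SD of the log2 signal was higher among Ago2-deficient than among GV oocytes in 15 of the 18 tested motor genes, beside 80.1% of all genes tested, and the median SD was 1.24 in Ago2-deficient and 0.29 in GV oocytes (0.74 and 0.28 over all genes tested).

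Motors depend on partners, and 34 genes of dynactin, of dynein and kinesin adaptors and of motor regulators were on the array. Of the 16 tested, 7 were lower and 3 higher, or 43.8% and 18.8%, shares near the 44.8% and 17.4% of all genes tested. The median log2 difference was -0.97, beside -1.39 over all genes tested. Dynactin is the complex that lets dynein move over long distances. Of its subunits, Actr1a, which forms the filament, read 7.81, 8.70 and 8.48 in Ago2-deficient oocytes, none detected, against 12.61, 12.13 and 12.34 in GV oocytes. Its GV mean was 16.4-fold above the floor described for Kif22, which is no strict bound. The fitted log2 difference was -4.03 (standard error 0.37, adjusted p = 0.000266), and -2.13 at its smallest among the alternatives. Dctn5, of the pointed end, read 7.07, 10.58 and 7.09 in Ago2-deficient oocytes, against 12.86, 12.50 and 12.40 in GV oocytes. It differed by -4.34 (standard error 0.96, adjusted p = 0.00732), and by -3.75 without Ago2-deficient replicate 1 and -5.51 without Ago2-deficient replicate 2, the only Ago2-deficient oocyte in which it was detected. Dctn2, of the shoulder, and Dctn6, of the pointed end, chosen after their values were seen, were also lower, with differences of -2.29 (adjusted p = 0.00335) and -1.67 (adjusted p = 0.0203). Dctn6 lost its call without GV replicate 1 (adjusted p = 0.0790) or 2 (0.0822), without scaling (-1.22) and with cyclic loess (-0.83), and it stood at -0.11 when arrays were centred on probes that all 6 had detected. The other dynactin subunits tested, Dctn3, of the shoulder, and Capza1, of the capping protein, likewise chosen after their values were seen, were detected in every oocyte and not called, with differences of 0.33 (adjusted p = 0.439) and -0.27 (adjusted p = 0.590). With a common median they were called at -2.56 and -3.57, and with no scaling at -1.46 and -2.47.

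Pafah1b1, or Lis1, which holds dynein on the microtubule, read 6.16, 6.38 and 6.51 in Ago2-deficient oocytes, none detected, against 10.49, 9.92 and 9.69 in GV oocytes. Its GV mean was 12.8-fold above the floor described for Kif22, again no strict bound. The fitted log2 difference was -3.68 (standard error 0.35, adjusted p = 0.000298), and -2.54 at its smallest among the alternatives. Zw10, which recruits dynein to kinetochores and was chosen after its values were seen, was lower, with a difference of -3.19 (adjusted p = 0.0024). Racgap1, the partner of Kif23 in centralspindlin, read 8.49, 10.06 and 9.67 in Ago2-deficient oocytes, against 13.28, 13.00 and 13.22 in GV oocytes. It differed by -3.76 (standard error 0.47, adjusted p = 0.000737), while Kif23 itself was not called. The midzone bundler Prc1 (0.22, adjusted p = 0.675) and Tpx2, which targets spindle kinesins to microtubules (0.27, adjusted p = 0.503), were detected in every oocyte and not called. A common median turned these to -2.60 and -2.35, called lower.

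The higher genes were Ninl, Hook2 and Kifbp. Ninl, a centrosomal protein that binds dynein, read 15.61, 15.10 and 16.55 in Ago2-deficient oocytes, against 10.64, 6.81 and 10.19 in GV oocytes, where the second was not detected. It differed by 6.54 (standard error 1.04, adjusted p = 0.00186), by 5.33 without GV replicate 2 and by 7.25 without GV replicate 1. A second Ninl probe, detected in 1 Ago2-deficient and 1 GV oocyte, was not tested. Hook2, a dynein adaptor of the centrosome, read 14.90, 15.43 and 14.27 in Ago2-deficient oocytes, against 10.54, 10.75 and 10.85 in GV oocytes, and was 17.8-fold higher (log2 difference 4.15, standard error 0.39, adjusted p = 0.000294). Kifbp, which binds kinesin motor domains and keeps them off microtubules, read 12.42, 13.41 and 12.18 in Ago2-deficient oocytes, against 9.14, 9.11 and 9.34 in GV oocytes, and was 11.1-fold higher (3.47, standard error 0.41, adjusted p = 0.000626). Hook2 and Kifbp stayed positive but lost their calls under the common median (1.23 and 0.98).

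**Figure D4:**
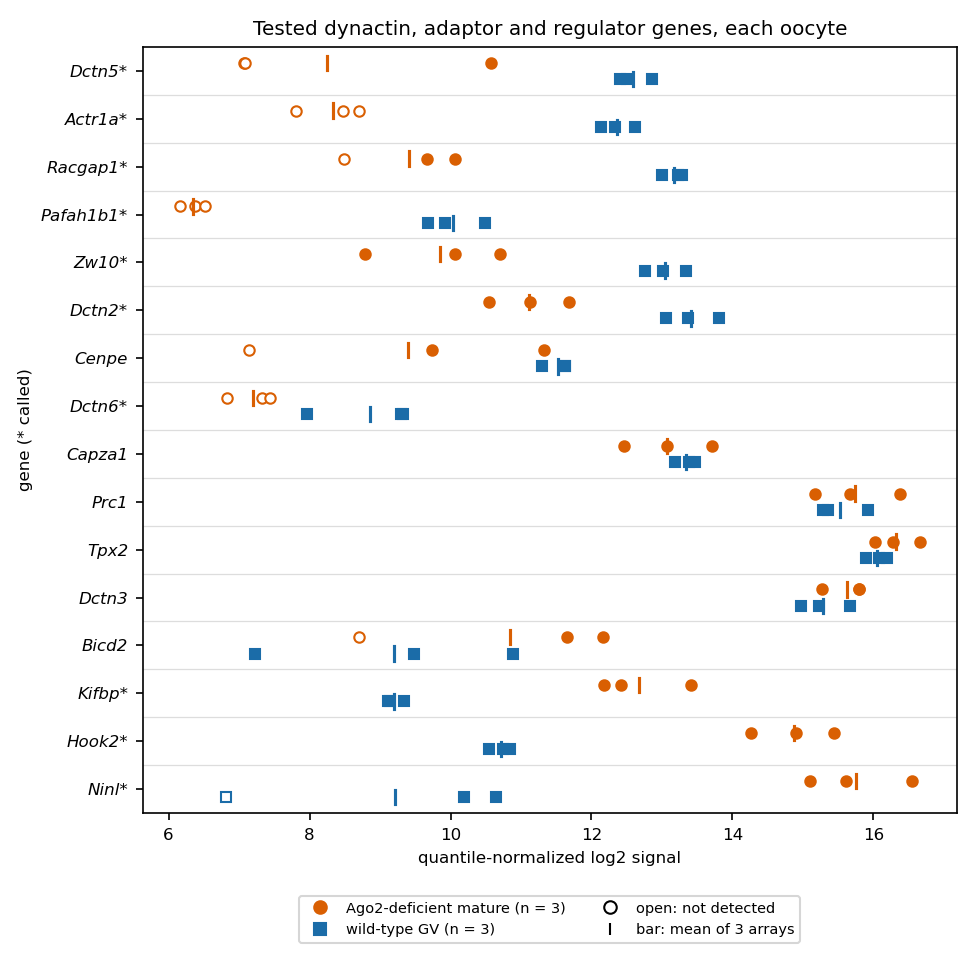
Quantile-normalized log2 signal (horizontal axis) of each tested dynactin, adaptor and regulator gene in each oocyte, ordered by the difference between the groups; circles are Ago2-deficient mature and squares wild-type GV oocytes, open symbols are not detected, bars are means of 3 arrays, and asterisks mark called genes. The dynactin genes Dctn5 and Actr1a stand at the top with their circles far left, and Kifbp, Hook2 and Ninl at the bottom with all 3 circles to the right of all squares.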

How the data were processed

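Each of the 6 arrays, Applied Biosystems V2.0 Mouse Genome Microarrays read by chemiluminescence, held digoxigenin-labelled cRNA amplified from 1 oocyte. For each probe the authors deposited a signal intensity, unscaled between arrays, its signal-to-noise ratio (a score) and a flag code. Quantile-normalized log2 values over the 6 arrays were deposited too, and again in the series table, which leaves 2675 flagged cells (code 5000 or above) empty. For scanner software, nothing is given in the sources used here. The number of arrays limits the precision.

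Genes were named from the platform annotation, in which 14411 probes carry 1 symbol, 247 several and 18354 none. The gene identifiers of 14402 were found in the RefSeq gene table of GRCm38.p6. Where a gene had more than 1 tested probe, the brightest by mean stood for it, and probes lacking a single symbol each counted as a gene. The 8018 probes (7915 genes) that passed the detection filter were fitted in limma 3.58.1 (R 4.3.3, lmFit then eBayes, two-sided, with Benjamini and Hochberg adjustment over these probes). No replicate block was used, since oocytes with the same number did not deviate together (r = -0.0487, 0.0275 and -0.0339). The fit was tested on simulated data in which both groups had the same SD, unlike these data, so unequal spread was not covered. Every tested motor gene is named, and of the regulators up to 4 called genes with the largest change in each direction and 2 not called with the highest signal. The members and lists were chosen with earlier results of these data known. Alternatives covered scaling, background, filter, detection limit, flags, variance model (statmod 1.5.0), block, thresholds and each array left out. Python 3.11.15 and matplotlib 3.10.9 drew the plots.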

Additional observations from a re-analysis of the deposited data

How the results depend on the processing

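Of the counts given for the motors, that of lower genes was 9 of 18. It was 16 after scaling to a common median and 5 after cyclic loess (78.6% and 31.7% of all genes tested), 4 of 39 with no filter on dim probes, 1 of 4 among probes detected on all 6 arrays, 4 with ordinary t-statistics and 3 at an adjusted p under 0.01 (9.12%, 21.7%, 37.5% and 32.9% of all genes tested under these last settings), and it ran from 3 to 9 when 1 array was left out. The count of higher motor genes, 0, was 3 with cyclic loess (Kif12, Kifc5b and Klc4), beside 24.7% of all genes tested. It was 1, Klc4, with normexp background, with a detection limit of 5 and among probes detected on all 6 arrays. Of all genes tested, 17.5%, 18.2% and 45.2% were higher under these settings. Among probes detected on all 6 arrays the median difference of all genes tested was 0.83. With 1 array left out the count of higher motor genes was 0 to 2. Over all genes tested, lower genes numbered 6220 with a common median and 543 among probes detected on all 6 arrays, beside 3543, and higher genes 312 with a common median and 611 with no scaling, beside 1378. Of 16 regulators tested 12 were lower and 1 higher with a common median, beside 78.6% and 3.94% of all genes tested. Of 8 tested among probes detected on all 6 arrays 2 were lower and 2 higher, beside 21.7% and 45.2%. The difference in motor genes detected per oocyte, -9.67, was -12.7 at a detection limit of 5 and -11.8 to -7.83 with 1 array left out. With the replicate number as a block 8 motor genes were lower, and Dynll1 lost its call. The block changed no other motor call.

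Signs changed in genes that were not called. With a common median Dynlrb2 was -0.84, Klc4 -1.67, Kif12 -2.04, Kif3a -0.997, Kif23 -1.96, Kifc5b -2.54, Tpx2 -2.35, Prc1 -2.60 and Dctn3 -2.56. With no scaling Klc4 was -0.57, Kif12 -0.93, Kif23 -0.85, Kifc5b -1.44, Tpx2 -1.25, Prc1 -1.50 and Dctn3 -1.46. Centred on probes detected on all 6 arrays Kifc5b was -0.33, Tpx2 -0.14, Prc1 -0.39 and Dctn3 -0.35. Dynll2 was 1.29 with cyclic loess and 0.11 with array weights, and Kif3a -0.37 with array weights. With 1 array left out Dynll2 ran from -1.19 to 0.80, Kif3a from -1.10 to 0.86, Prc1 from -0.10 to 0.50 and Capza1 from -0.58 to 0.044. The cause was not tested. A gene undetected in the Ago2-deficient oocytes has no measured level there, and the higher signal of undetected probes on those arrays limits what can be detected.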
